A study of Arabidopsis thaliana with 8 samples.

Results

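The genes described here are the 4 B1-type cyclin genes, the 4 genes for B-type cyclin-dependent kinases (CDKs) and KNOLLE of Arabidopsis thaliana. They are CYCB1;1 (AT4G37490), CYCB1;2 (AT5G06150), CYCB1;3 (AT3G11520), CYCB1;4 (AT2G26760), CDKB1;1 (AT3G54180), CDKB1;2 (AT2G38620), CDKB2;1 (AT1G76540), CDKB2;2 (AT1G20930) and KNOLLE (AT1G08560). They were picked out by their locus names, and all 9 were found among the 25643 loci on the array. Each was well above background on all 8 arrays and none was saturated.

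The arrays measured RNA from leaves of 8 diploid strains, named ExTQ002, ExTQ003, ExTQ005, ExTQ013, ExTQ015, ExTQ016, ExTQ018 and ExTQ019, on 1 array each. Ex-TAQing places the gene for MseI, a restriction enzyme that cuts DNA at a short recognition site, in the plant and switches it on by warmth. Every strain is progeny of a plant that carried this gene and was kept at 33 °C for 3 h, and the progeny were grown for 4 weeks in dishes with 16 h of light a day. All 8 therefore form 1 group, no untreated strain was used here, and each strain can only be set against the other 7. The labels name neither an accession background nor the promoter of the MseI gene, and do not say how many plants went into a sample. The titles and description texts give different strain numbers, and strains are named here by the titles.

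Mitosis in plants is driven by CDKs that change partners through the cell cycle. B1-type cyclins accumulate from G2 to the middle of mitosis and bind B-type CDKs, a kinase class found in plants whose RNA, unlike that of CDKA;1, is itself made in a cell cycle phase. KNOLLE is the syntaxin that fuses vesicles into the cell plate during cytokinesis, so its RNA is also made around mitosis. In a leaf sample these RNAs come from the few dividing cells, and RNA from young organs, shoot tips or flower buds adds to them. The cyclin CYCB1;1 has a further role in Arabidopsis, since it is made after DNA damage under the regulator SOG1 and acts with B1-type CDKs in repair.

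A level is the log2 processed intensity of a gene's probe minus the 75th percentile of its array, so a gene at 0 is moderately bright. Probes differ in how brightly they report, so a gene is compared between strains and never with another gene. The median SD of probes printed repeatedly on 1 array was 0.055 to 0.084, which is the error within an array. The spread between plants of 1 strain was not measured, so p-values measure the spread between strains, and the strain tested is assumed to vary as the 7 others do. In bulk RNA, fewer dividing cells and less RNA per dividing cell cannot be told apart.

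Of the B1 cyclins, CYCB1;2 varied most. CYCB1;2 lay at −2.27 in ExTQ002, −0.81 in ExTQ013, −0.86 in ExTQ015, −0.27 in ExTQ003, −0.28 in ExTQ005, −0.28 in ExTQ016, −0.36 in ExTQ018 and −0.80 in ExTQ019. ExTQ002 was apart, 1.41 below the next strain, and the other 7 lay within 0.59 of each other. ExTQ003, ExTQ005, ExTQ016 and ExTQ018 were close enough that their order cannot be read.

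CYCB1;3 lay at −2.63 in ExTQ002, −1.68 in ExTQ013, −1.86 in ExTQ015, −1.28 in ExTQ003, −1.24 in ExTQ005, −1.28 in ExTQ016, −1.43 in ExTQ018 and −1.93 in ExTQ019. CYCB1;4 lay at −2.09 in ExTQ002, −1.16 in ExTQ013, −0.92 in ExTQ015, −0.44 in ExTQ003, −0.55 in ExTQ005, −0.60 in ExTQ016, −0.88 in ExTQ018 and −1.10 in ExTQ019. In both, ExTQ002 was the lowest strain, ExTQ013, ExTQ015 and ExTQ019 came next, and ExTQ003, ExTQ005 and ExTQ016 were at the top.

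CYCB1;1 did not share this order. It lay at −1.49 in ExTQ002, −1.18 in ExTQ013, −1.82 in ExTQ015, −1.62 in ExTQ003, −1.59 in ExTQ005, −1.83 in ExTQ016, −1.68 in ExTQ018 and −1.99 in ExTQ019. Here ExTQ013 was the highest and ExTQ002 the second highest strain, and ExTQ019 was the lowest. The whole range was 0.81, and the other 6 strains lay between −1.99 and −1.59.

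The B1-type CDK genes, whose products act from late S phase to mitosis and restrain endoreduplication, were likewise lowest in ExTQ002. CDKB1;1 lay at −3.14 in ExTQ002, −2.13 in ExTQ013, −2.26 in ExTQ015, −1.81 in ExTQ003, −1.89 in ExTQ005, −1.67 in ExTQ016, −1.92 in ExTQ018 and −1.92 in ExTQ019. CDKB1;2 lay at −5.34 in ExTQ002, −3.90 in ExTQ013, −3.66 in ExTQ015, −3.11 in ExTQ003, −3.26 in ExTQ005, −3.33 in ExTQ016, −3.60 in ExTQ018 and −3.74 in ExTQ019. For both, the 1 array of ExTQ002 lay below all the others, as it did for 19.3% of tested loci. The second of these genes had 2 probes, which ran together over the strains (r = 0.99) and differed in level by at most 0.48.

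The B2-type CDK genes, needed for mitosis and for an orderly shoot meristem, split in 2. CDKB2;1 lay at −2.08 in ExTQ002, −0.97 in ExTQ013, −1.37 in ExTQ015, −0.73 in ExTQ003, −0.55 in ExTQ005, −0.53 in ExTQ016, −0.61 in ExTQ018 and −0.85 in ExTQ019. CDKB2;2 lay at −2.23 in ExTQ002, −1.98 in ExTQ013, −3.33 in ExTQ015, −3.15 in ExTQ003, −2.67 in ExTQ005, −2.82 in ExTQ016, −2.70 in ExTQ018 and −3.01 in ExTQ019. The former was lowest in ExTQ002, whereas the latter had ExTQ013 and ExTQ002 as its highest strains and ExTQ015 as its lowest. CYCB1;1 and CDKB2;2 are called the discordant pair (the discordant cyclin and kinase) from here on, and the other 7 genes the concordant genes, a split made after the values were seen, which carries no test. The copies within each CDK pair are close in sequence and the probe sequences were not used here, so signal shared between copies is uncertain.

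KNOLLE lay at −0.51 in ExTQ002, 0.86 in ExTQ013, 0.79 in ExTQ015, 1.58 in ExTQ003, 1.36 in ExTQ005, 1.68 in ExTQ016, 1.42 in ExTQ018 and 1.14 in ExTQ019. ExTQ002 was again the lowest strain, followed by ExTQ015 and ExTQ013, and ExTQ016 the highest.

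**Figure D1:**
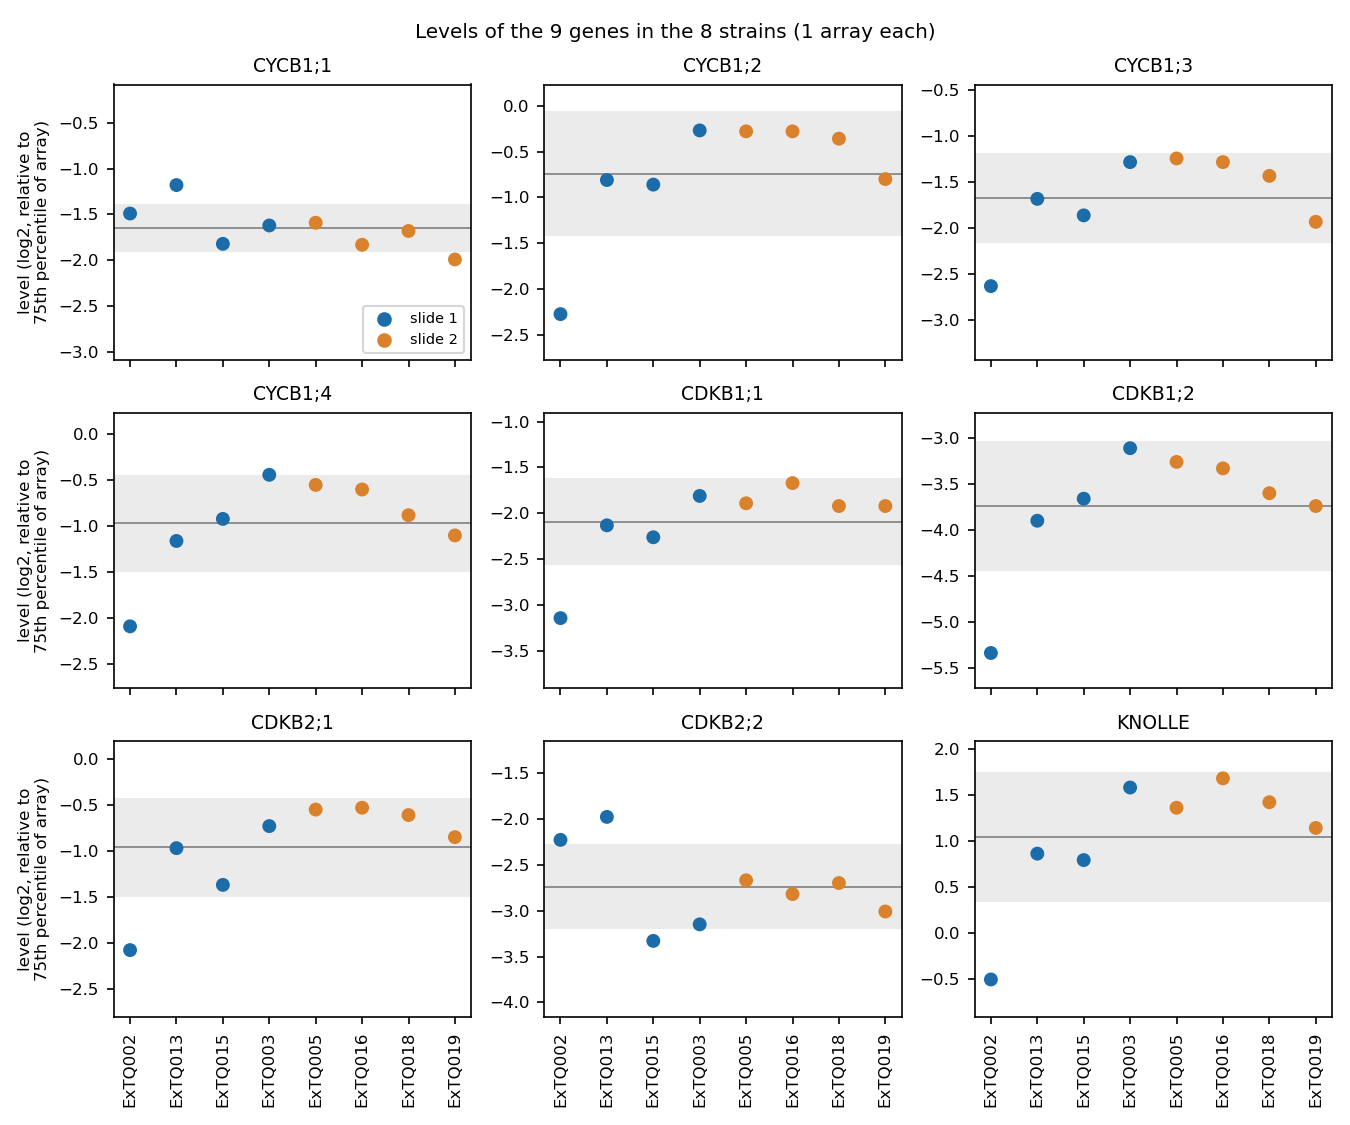
Level of each gene (log2, relative to the 75th percentile of its array) in the 8 strains, 1 array each, coloured by slide. The line is the mean and the grey band 1 SD (n = 8), and every panel spans the same range of log2 units. ExTQ002 is the lowest point in the panels of the 7 concordant genes, but the second highest for the discordant pair.

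Over the 8 strains the SD of the level was 0.25 for CYCB1;1, 0.67 for CYCB1;2, 0.48 for CYCB1;3 and 0.52 for CYCB1;4 (n = 8). The SD was 0.46 for CDKB1;1, 0.70 for CDKB1;2, 0.53 for CDKB2;1, 0.45 for CDKB2;2 and 0.70 for KNOLLE. The median of the 9 was 0.52, against 0.30 over the 18920 loci well above background on all arrays, and 8 of the 9 lay above that median, all but CYCB1;1. Without ExTQ002 the median of the 9 was 0.29, the same as over all loci, and 4 of the 9 lay above. Leaving out that 1 array thus brought the median of these genes to that of all loci.

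ExTQ002 was the strain in which the genes lay furthest from the others. The levels of 7 of the 9 genes, those called concordant for this reason, were below those of all 7 other strains, which held for 19.3% of all tested loci in ExTQ002. The differences of these genes from the mean of the others ran from −1.82 to −1.10 on the log2 scale, or 2.15- to 3.53-fold. All 7 had an unadjusted p under 0.05 and a difference of at least 1, a rule that 6.16% of all tested loci met in the same direction and 0.898% in the other. None passed after Benjamini-Hochberg adjustment over the 22381 tested loci, where limma (lmFit and eBayes) gave adjusted p-values from 0.0859 to 0.246. A call needed both an adjusted p under 0.05 and a difference of at least 1 in size, and in ExTQ002 0.0536% of loci were called lower and 0.0313% higher.

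CDKB1;2 differed by −1.82 ± 0.30 on the log2 scale (SE of the difference between 1 array and 7), and its limma adjusted p was 0.0859. In the deposited series values it differed by −0.95 (limma adjusted p = 0.279). CYCB1;2 differed by −1.75 ± 0.30 with a limma adjusted p of 0.0896. KNOLLE differed by −1.77 ± 0.36 with a limma adjusted p of 0.113. CDKB1;1 differed by −1.19 ± 0.23, the smallest standard error of the 7, with a limma adjusted p of 0.107, and by −0.79 in the deposited series values (limma adjusted p = 0.344).

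CYCB1;4 and CDKB2;1 each differed by −1.28, with standard errors of 0.30 and 0.32 and limma adjusted p-values of 0.167 and 0.186. CYCB1;3 had the smallest difference of the 7, at −1.10 ± 0.31, with a limma adjusted p of 0.246. The discordant cyclin differed by 0.19 ± 0.28 and the discordant kinase by 0.57 ± 0.44, with limma adjusted p-values of 0.875 and 0.756. The B1 cyclins thus gave values on both sides of 0 in ExTQ002. At their smallest over 18 alternatives, the differences of CYCB1;4, CDKB2;1 and CYCB1;3 were −0.95, −0.99 and −0.81, less than 1 in size.

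The calls in ExTQ002 depended on which strains stood for the rest. Without ExTQ013, limma called 2 of the 9, CDKB1;2 at −1.88 (adjusted p = 0.0394) and CYCB1;2 at −1.80 (adjusted p = 0.0486). When the adjustment ran over all strains together, 1 was called, the former with a limma adjusted p of 0.0481. Against the 3 other arrays of the same slide the 7 genes differed by −1.78 to −1.03, and 0 were called by limma, with a smallest adjusted p of 0.418.

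**Figure D2:**
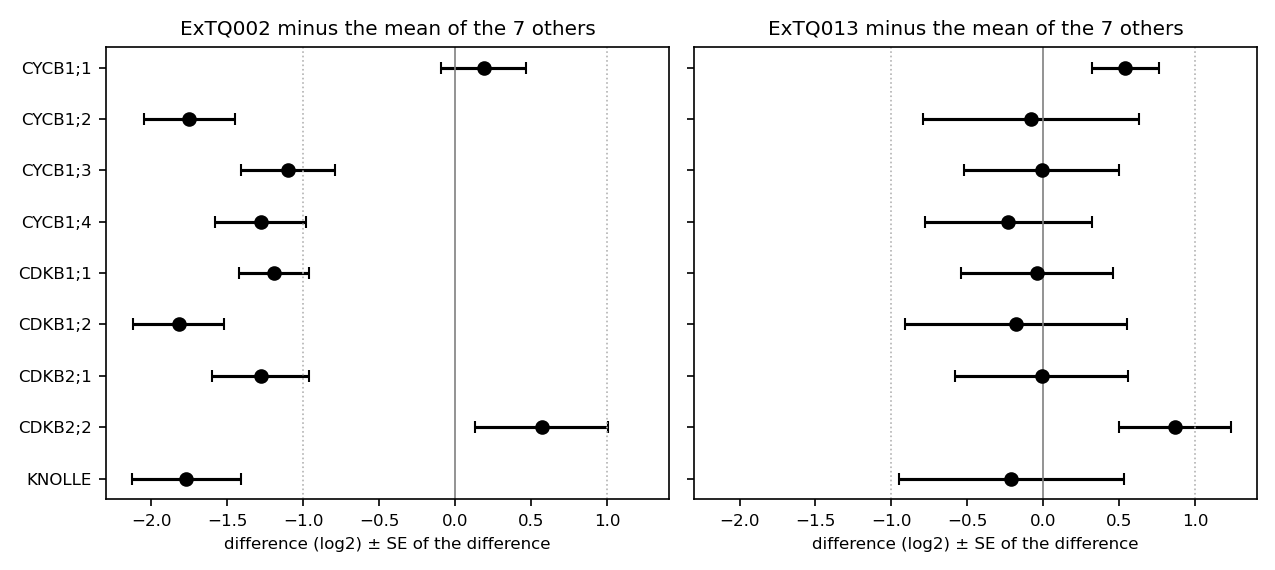
Difference of ExTQ002 (left) and ExTQ013 (right) from the mean of the 7 other strains, in log2 units, with the standard error of the difference from limma. Dotted lines mark a difference of 1 in size. In ExTQ002, 7 genes lie between −1.82 and −1.10 while the discordant pair lies above 0, and in ExTQ013 that pair is furthest above 0.

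In ExTQ013 the discordant pair stood out instead. CYCB1;1 was 0.54 ± 0.22 above the others (unadjusted p = 0.0407) and CDKB2;2 was 0.87 ± 0.37 above them (unadjusted p = 0.0503), with limma adjusted p-values of 1.0 for both. Both were above all 7 others there, as were 4.16% of tested loci. The 7 remaining genes lay between −0.23 and −0.01 in ExTQ013. The discordant pair were also the 2 of the 9 genes for which ExTQ002 and ExTQ013 both exceeded the 6 other strains, a pattern shown by 9.03% of tested loci. With normexp background correction, which moved the median of all loci in ExTQ003 by 0.28, both genes were highest in ExTQ003 and neither kept this pattern. The differences in ExTQ013 were then 0.18 for the cyclin and 0.36 for the kinase. In the deposited series values both were highest in ExTQ002 with ExTQ013 second, and differed by 0.26 and 0.56 in ExTQ013.

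The other 6 strains gave smaller differences. The median difference of the 9 genes was 0.47 in both ExTQ005 and ExTQ016, 0.44 in ExTQ003 and 0.20 in ExTQ018, where the median of all tested loci lay between 0.02 and 0.05. The median was −0.20 in ExTQ015 and −0.07 in ExTQ019, beside 0.00 and −0.05 over all tested loci. All 9 genes were above the mean of the others in ExTQ005 and 8 in ExTQ003 and ExTQ018. Since ExTQ002 is part of that mean for each of them, these values share 1 low array.

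Of the 9 genes, CYCB1;4, CDKB1;2 and, by a gap that rounds to 0.00, CYCB1;2 were highest in ExTQ003, where 12.4% of loci were above all others. CDKB1;1, CDKB2;1 and KNOLLE were highest in ExTQ016 (15.0% of loci) and CYCB1;3 in ExTQ005 (9.98% of loci). The discordant kinase was lowest in ExTQ015 (6.02% of loci) and the discordant cyclin in ExTQ019 (29.9% of loci).

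None of the 9 genes was called by limma in any of the 8 strains, and outside ExTQ002 the 1 unadjusted p under 0.05 was that of the discordant cyclin in ExTQ013. With normexp background correction 1 of the 9 was called in ExTQ003 (limma adjusted p = 0.0339). The share of tested loci called higher was 4.4% in ExTQ019, 1.38% in ExTQ016, 0.0491% in ExTQ015 and 0.00447% in ExTQ005. The share called lower was 6.3% in ExTQ019 and 0.00447% in each of ExTQ015 and ExTQ016. It was 0.0% in both directions in ExTQ013, ExTQ003 and ExTQ018, and 0.0% called lower in ExTQ005. ExTQ019, the strain with the most called loci, held no call among the mitotic genes, and the smallest limma adjusted p for them there was 0.307. For 9 genes this is near the shares over all loci. The low array of ExTQ002 is also among the 7 others there and widens their spread. The SE of the difference for KNOLLE was 0.74 in ExTQ019 and 0.36 in ExTQ002.

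The arrays lay on 2 slides of 4, with ExTQ002, ExTQ013, ExTQ015 and ExTQ003 on slide 1. The difference of slide 2 from slide 1 ran from −0.25 for the discordant cyclin to 0.72 for KNOLLE, with limma adjusted p-values from 0.502 to 0.901. None of the 9 was called between slides, nor was any other tested locus (0.0%), with 2259 loci at an unadjusted p under 0.05. Slide 1 holds the low array of ExTQ002, and the SD of KNOLLE was 0.87 on slide 1 and 0.22 on slide 2 (n = 4 each).

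How far the genes moved together was described by the correlation of their levels over the 8 strains, which share slides and the low array of ExTQ002. Among the 7 concordant genes, the 21 pairs had Pearson correlations from 0.88 to 0.99, with a median of 0.96, and Spearman correlations from 0.76 to 1.00. CDKB1;1 and KNOLLE had r = 0.99 and rho = 0.98, and r = 0.96 without ExTQ002. CYCB1;4 and CDKB1;2 had r = 0.99 with and without ExTQ002. The least alike pair, CYCB1;4 and CDKB2;1, had r = 0.88, and 0.54 without ExTQ002. Without that strain the 21 pairs ran from 0.54 to 0.99.

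The discordant pair had r = 0.81 and rho = 0.74 with each other, and r = 0.80 without ExTQ002. Their 14 pairs with the other genes ran from −0.56 to −0.10, and from −0.43 to 0.25 without ExTQ002. The B2-type CDK genes, copies within 1 kinase class, had r = −0.27 with each other.

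**Figure D3:**
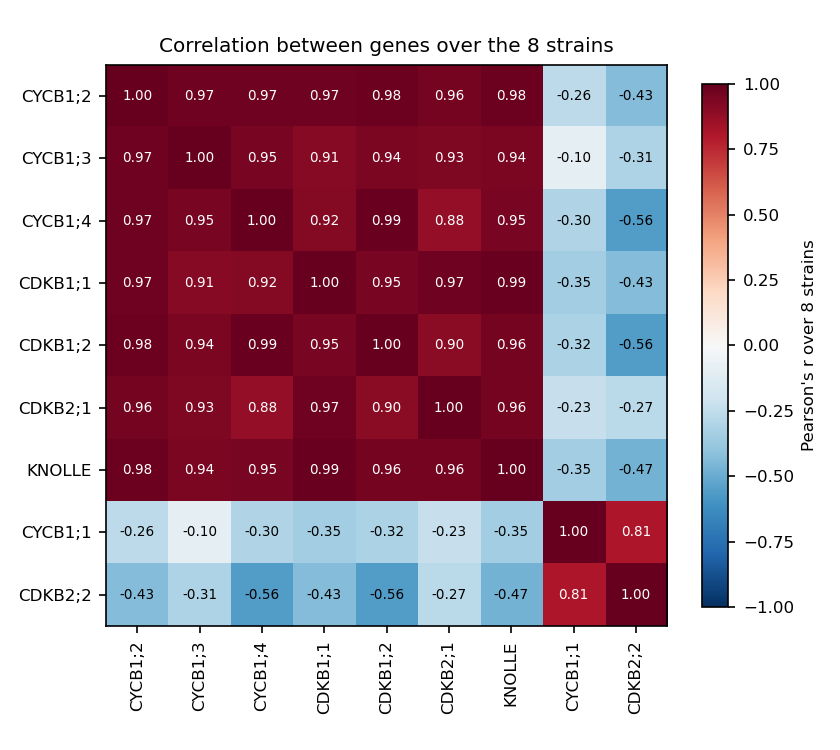
Pearson correlation of the levels over the 8 strains for each pair of genes, on a colour scale from −1 to 1. The 7 concordant genes form a block from 0.88 to 0.99, and the discordant pair stands at 0.81.

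The 5 loci with the profile most like the mean of the 9 genes were found among 4983 loci well above background on all arrays with an SD of at least 0.52. MAD2, which encodes a spindle checkpoint protein, was first with r = 0.994 and rho = 1.00. It lay at −2.68 in ExTQ002, −1.36 in ExTQ013, −1.64 in ExTQ015, −0.99 in ExTQ003, −0.97 in ExTQ005, −0.87 in ExTQ016, −1.05 in ExTQ018 and −1.62 in ExTQ019. The next were AT3G25930 (r = 0.986), AT2G39560 (r = 0.984), AT3G22540 (r = 0.982) and the MYB gene MYB43 (r = 0.982). Of the candidates 65, or 1.3%, had an r of at least 0.95.

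The other genes of the cell cycle were taken from 8 lists of 103 loci. In ExTQ002 limma called 0 loci in each of the 8 lists, and the counts below give loci at an unadjusted p under 0.05, as 9.57% of all tested loci had there in either direction. The counts of loci below all 7 other strains stand beside 19.3% of all tested loci in ExTQ002. Among the other A- and B-type cyclins, 11 of 14 tested lay below all 7 other strains, 10 had such a p, and the median difference was −1.41, beside −0.04 over all tested loci. CYCB3;1 differed by −1.76 (limma adjusted p = 0.0661) and CYCB2;1 differed by −2.30 (limma adjusted p = 0.071). CYCA2;4, a partner of B1-type CDKs, had the largest SD of the list, 0.96, and ran from −6.57 in ExTQ002 to −3.81 in ExTQ016.

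Regulators of mitosis itself gave like values. Of 17 genes for spindle and cell plate proteins, 11 lay below all others in ExTQ002, 9 had an unadjusted p under 0.05, and the median was −1.04. HINKEL, a kinesin of the cell plate, differed by −1.64 ± 0.23 (limma adjusted p = 0.063). EDE1, a microtubule-binding protein of mitotic arrays, differed by −1.84 ± 0.41 (limma adjusted p = 0.143). In contrast KEULE and SNAP33, which encode partners of KNOLLE in vesicle fusion and serve other fusion events too, differed by −0.08 and 0.26. The syntaxin gene SYP71 differed by 0.06, and NPSN11 of the same list by −0.42 ± 0.40.

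Of 7 genes acting on the anaphase-promoting complex, which marks mitotic cyclins for destruction, 6 lay below all others, 4 had an unadjusted p under 0.05, and the median was −1.29. CDC20;1, an activator of the complex in mitosis, differed by −1.89 ± 0.41 (limma adjusted p = 0.131). CCS52A1, an activator tied to endoreduplication, differed by 0.57 ± 0.33 (limma adjusted p = 0.658) and was the 1 gene of this list above all others.

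The lists of CDKA;1 with D-type cyclins, of replication genes and of CDK inhibitors had medians nearer to 0. Of 13 genes for CDKA;1, its subunits and D-type cyclins, 7 lay below all others in ExTQ002, 5 had an unadjusted p under 0.05, and the median was −0.75. CDKA;1 itself differed by −0.11 ± 0.16, while CYCD3;1, a D-type cyclin of dividing leaf cells, differed by −1.60 ± 0.30 (limma adjusted p = 0.101). Of 16 genes for DNA replication, 11 lay below all others, 3 had an unadjusted p under 0.05, and the median was −0.36. Of 17 CDK inhibitor genes, 7 lay below all others, 3 had an unadjusted p under 0.05, and the median was −0.30. SIM, an inhibitor tied to endoreduplication in leaf hairs, ran from −0.54 in ExTQ002 to 1.08 in ExTQ016.

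Of 11 transcription regulators, 2 lay below all others in ExTQ002, near the share of all tested loci. Of the 11, 2 had an unadjusted p under 0.05, and the median was −0.04. MYB3R4, an activator of G2 and mitosis genes, differed by −1.67 ± 0.33 (limma adjusted p = 0.111). MYB3R1, MYB3R3 and MYB3R5 differed by 0.01, −0.04 and −0.09.

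**Figure D4:**
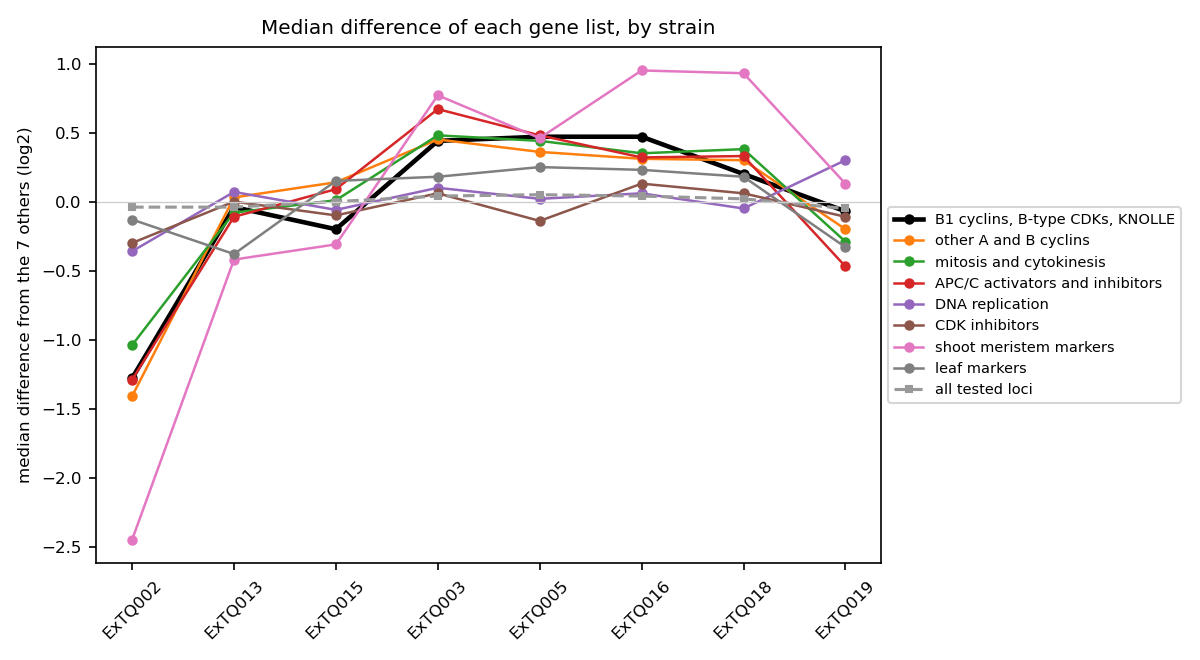
Median difference from the 7 other strains (log2) of each gene list in each strain, with all tested loci as grey squares. Lines only join the points of 1 list, since strains have no order. In ExTQ002 the 9 genes lie at −1.28, the other A and B cyclins at −1.41 and the shoot meristem markers at −2.45, with all tested loci at −0.04.

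Markers of the shoot meristem and of flowers varied with the 7 concordant genes, but not with the discordant pair. All 6 leaf markers, genes of photosynthesis that other green tissue expresses too, were above background on every array, and in ExTQ002 their median difference was −0.13. The RNA labelled as leaf also held flower markers, all 11 of which were above background in each of the 7 other strains. All 11 flower markers lay below all others in ExTQ002, as did 19.3% of tested loci. Their median was −4.50, and 7 of the 11 were above background there. LFY, UFO, AP1 and AP3 were those not well above background in ExTQ002. The summed level of the flower markers, on the log2 scale, was −0.36 in ExTQ002 and ran from 1.94 in ExTQ013 to 4.59 in ExTQ018 in the others.

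Of 7 shoot meristem markers, 6 lay below all others in ExTQ002, beside 19.3% of tested loci. The list had a median of −2.45 there and a summed level of −0.25 against 2.17 to 3.10 in the others. STM, which keeps meristem cells undetermined, differed by −3.15 ± 0.44 and BP by −3.76 ± 0.54, both with a limma adjusted p of 0.063. WUS and CLV3, which define the stem cell niche, were above background on 4 of the 8 arrays each, ExTQ002 not among them. The summed level of the 6 anther markers was −5.07 in ExTQ002, where 1 of the 6 was above background, and ran from −3.77 in ExTQ013, where 3 were, to 0.64 in the others, so the low sums are mostly readings near background. Limma called 0 loci of these lists in ExTQ002, where 10 flower, 5 meristem and 2 anther markers had an unadjusted p under 0.05, beside 9.57% of all tested loci. The part of these tissues in the levels of the mitotic genes was not tested.

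Across the strains, the mean profile of the 7 concordant genes had a median r of 0.93 with the 5 meristem markers above background on all arrays and of 0.94 with the 7 such flower markers. It was 0.92 for 14 other A- and B-type cyclins, 0.81 for the 17 spindle and cell plate genes and 0.86 for the 7 genes of the anaphase-promoting complex. It was 0.45 for the 16 replication genes and 0.39 for the 6 leaf markers, beside 0.05 over all loci. The 1 seed marker above background on all arrays had r = 0.08. These values describe 8 strains that share 1 low array. Without ExTQ002 the median was 0.67 for the meristem, 0.79 for the flower and 0.61 for the leaf markers, so the leaf markers were then near the meristem markers. It was then 0.60 for the A- and B-type cyclins, 0.64 for the spindle and cell plate genes, 0.63 for the anaphase-promoting complex and 0.14 for replication, beside 0.08 over all loci. The discordant cyclin and kinase, over all 8 strains, had a median r of −0.41 and −0.48 with the meristem markers. With the flower markers their medians were −0.45 and −0.49.

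The genes that respond to DNA damage were set beside the discordant pair, because the cyclin of the pair is itself such a gene. Among 8 damage response genes above background on all arrays, the median r was 0.55 with the discordant cyclin and 0.56 with the discordant kinase, but −0.52 with the 7-gene profile, or −0.30 without ExTQ002. Over all loci these medians were −0.05, −0.06 and 0.05. BRCA1, PARP2, XRI1 and SMR5 had both ExTQ002 and ExTQ013 above the 6 other strains, which is 4 of the 8 genes beside 9.03% of tested loci. The discordant pair, which shares this pattern, did not keep it with normexp background correction. Of 92 loci in the other 7 cell cycle lists, 7 had this pattern, namely E2FC, DPA, KRP6, AT1G08180, CCS52A1, CYCA2;2 and TSO2. ExTQ002 and ExTQ013 also had the lowest summed levels of the flower markers, −0.36 and 1.94, against 2.2 to 4.59 in the others. The part of tissue in this pattern was not tested. AT1G08180, of the CDK inhibitor list, had r = 0.85 with the discordant cyclin, above the highest value in the damage list, 0.75 for XRI1.

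XRI1, needed for repair in meiosis, lay at −0.38 in ExTQ002, −0.45 in ExTQ013, −1.40 in ExTQ015, −1.57 in ExTQ003, −1.59 in ExTQ005, −1.18 in ExTQ016, −1.46 in ExTQ018 and −1.78 in ExTQ019. ExTQ002 and ExTQ013 were high and ExTQ019 was the lowest strain, as it was for the discordant cyclin. PARP1 and GMI1 did not share this order, and ANAC044 was high in ExTQ002 and ExTQ019, at −3.92 and −4.52. SMR7 was also lowest in ExTQ019, but ExTQ018, at 1.32, lay above ExTQ002, at 1.15.

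Limma called 0 of the 9 damage response genes in ExTQ002 and 0 in ExTQ013, where 0 had an unadjusted p under 0.05, beside 0.987% of all tested loci. In ExTQ002 XRI1 differed by 0.96 ± 0.44 (limma adjusted p = 0.544) and PARP2 by 1.15 ± 0.57 (limma adjusted p = 0.586). ANAC044 was the 1 gene of the list with an unadjusted p under 0.05 in ExTQ002, at 1.92 ± 0.74 (limma adjusted p = 0.461). TSO2, a ribonucleotide reductase gene of the replication list, had r = 0.78 with the discordant cyclin and 0.85 with the kinase.

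**Figure D5:**
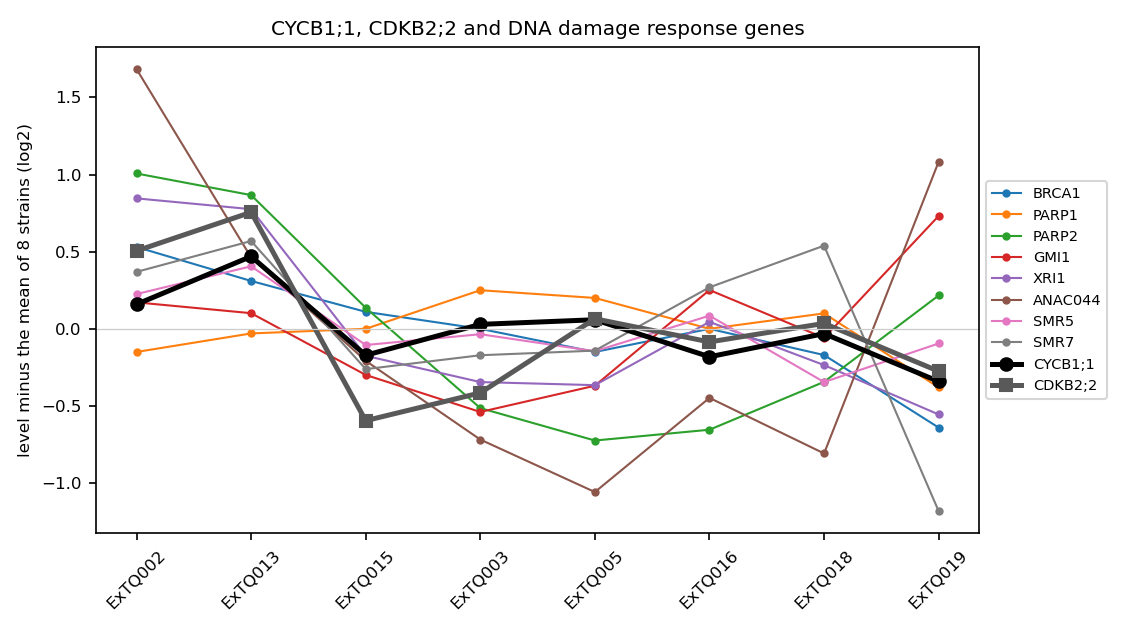
Level minus the mean of the 8 strains (log2) for the cyclin CYCB1;1 (black circles), the kinase CDKB2;2 (grey squares) and the 8 damage response genes above background on all arrays. Lines only join the points of 1 gene, since strains have no order. The discordant pair has its 2 highest points in ExTQ002 and ExTQ013, as do BRCA1, PARP2, XRI1 and SMR5. The pair did not keep this with normexp background correction.

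The strains may carry lost or gained chromosome parts, so the neighbours of each gene were looked at. For each of the 9 genes and each strain, the median difference from the median of the other strains was taken over 10 measured loci on either side in locus order. The median of all measured loci in that strain was first subtracted from the neighbours' differences, but not from a gene's own. These 72 medians ran from −0.26 for CYCB1;3 in ExTQ002 to 0.33 for the discordant cyclin in ExTQ019. In ExTQ002 the neighbour medians of the 9 genes lay between −0.26 and 0.12. The 7 concordant genes differed there by −1.91 to −1.20 from the median of the others.

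ExTQ019 differed in this respect for other cell cycle genes. CYCD4;1 differed from the median of the others by −1.47, and its neighbours had a median of −1.03. The neighbours of CYCD3;2 had a median of −1.03 and those of POK1, a kinesin that marks the division plane, −1.02, where the genes themselves differed by −1.08 and −1.53. Of the loci in the 8 cell cycle lists, 10 had a neighbour median of −0.4 or lower, and 7 of these differed by −1.59 to −0.71 themselves. The other 3 were KRP6 (neighbours −1.15, the gene −0.06), SNAP33 (neighbours −0.68, the gene 0.24) and MCM6 (neighbours −0.41, the gene 0.38). The 9 mitotic genes had neighbour medians between −0.08 and 0.33 in that strain.

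The cell cycle genes called in ExTQ019 lay outside the 9. In that strain 4.4% of all tested loci were called higher and 6.3% lower. The calls named here, out of 103 loci in the lists, are no more than those shares would give. Among the lists, CYCD4;1 fell by 1.54 ± 0.26 (limma adjusted p = 0.0087), CYCA3;2, an S-phase cyclin, by 1.05 ± 0.17 (limma adjusted p = 0.00713) and SMR7, a damage-responsive CDK inhibitor, by 1.35 ± 0.36 (limma adjusted p = 0.0415). AT1G10690 rose by 1.15 ± 0.25 (limma adjusted p = 0.0204). The CDK inhibitor gene KRP3 rose too, at −2.91 in ExTQ019 against a mean of −4.01 ± 0.24 in the others (SD, n = 7, limma adjusted p = 0.026). Apart from the D-type cyclin, the neighbours of these genes had medians from −0.12 to 0.22. Of the 16 replication genes, 8 lay above all others in ExTQ019, where 27.6% of loci did. None was called, since those with an adjusted p under 0.05 differed by less than 1, such as RNR2A at 0.88 ± 0.22 (limma adjusted p = 0.0344), and 6 had an unadjusted p under 0.05, a share near the 32.2% of all tested loci in that strain. CDC6 and ORC1A, which license replication origins, had the largest SDs of that list, 0.62 and 0.50, and both were lowest in ExTQ019, at −3.62 and −6.74. The leaf marker RBCS2B fell by 1.44 ± 0.34 in ExTQ019 (limma adjusted p = 0.0287).

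Seed markers stood apart in ExTQ016, a strain in which the 9 mitotic genes had a median difference of 0.47. SESA3, a storage albumin gene, was at 5.13 in ExTQ016 (limma adjusted p = 7.68e-05). LEC1, a regulator of embryo development above background on 6 arrays, was called higher there too (limma adjusted p = 0.00179), as were SESA1 and OLEO1. SESA1 and SESA3 were above background on that array alone and OLEO1 on 2 arrays, so they entered the test through arrays where they were high and the spread behind their p-values is that of readings near background. Limma called 1.38% of all tested loci higher in ExTQ016. It did not call the other seed markers there, CRA1 at 4.42 and FUS3 at −2.48. In ExTQ002 limma called 0 of the 6 seed markers, and 0 had an unadjusted p under 0.05, beside 9.57% of all tested loci. The part of seed tissue in the mitotic genes was not tested.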

How the data were processed

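RNA from leaves of 8 strains was measured on 1-colour Agilent arrays, from 200 ng of total RNA with Cy3 per the labels' protocols, although the molecule field names genomic DNA. Per the file headers, the authors' processed intensity came from Agilent Feature Extraction 11.0.1.1, which subtracted background and detrended each array but scaled none to another. The log2 scale of the deposited series values was read from the values, since each column followed its own array (r of at least 0.997). The submitters' processing notes name limma, but how these values were made is not stated.

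Spots with an outlier mark were set aside (34 of 37478 probes left out), spots of a probe were averaged, and the log2 processed intensity was scaled by subtracting the 75th percentile of its array. The 26214 probes with a locus name stood for 25643 loci, 541 of them with 2 or more probes, where the probe with the highest mean was used. The RefSeq gene table held 25427 of the loci. No build is stated for the array, so no coordinates are printed. Between 61.3% and 67.7% of probes were well above background, and precision is limited by the small number of arrays. The 22381 loci well above background on at least 1 array were tested in R 4.3.3 with lmFit and eBayes of limma 3.58.1, with Benjamini-Hochberg adjustment within a strain. The test was checked on simulated data. Tables and figures used Python 3.11.15 with numpy 2.4.6, pandas 2.3.3 and matplotlib 3.10.9.

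Alternatives were normexp (offset 50, on median spot and background intensity in place of the mean), quantile normalization, the deposited series values, median scaling, other filters, slide as a block or same slide only, trend and robust, the mean over probes, adjustment over all strains, and leaving out each strain. The genes and lists were chosen with earlier results of these data known. From each list the rule named called loci (up to 4 a strain) and the 2 with the largest SD, of which some are given, and it named 5 loci by likeness. Other list genes in the text were chosen after their values were seen. Promoter, protein and probe sequences were not analysed here. The damage response list has 9 genes after 1 further gene, which is not reported here, was taken off it, and every count and median of the list is over those 9 or the 8 of them above background on all arrays.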

Additional observations from a re-analysis of the deposited data

Results flagged for a closer look

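Levels over the 8 strains were examined for 46 genes named above or by the same rule. A gene is given here when the gap between its highest or lowest strain and the next strain, divided by the whole range, exceeded Dixon's critical value for 8 values. Chance alone passes it in about 1 of 20 sets of values not chosen for their spread, a rate that does not apply here, since genes were named for a call, a large SD, a likeness or an earlier result. It was exceeded by 25 genes, 5 of them among the 9 mitotic genes, and most share the same low array.

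The mitotic genes with ExTQ002 far below the rest were CYCB1;2 (ratio of gap to range 0.707), CDKB1;2 (0.644), CDKB1;1 (0.594), KNOLLE (0.591) and CYCB1;4 (0.56). ExTQ002 was also far below the rest for CYCD3;1 (0.64), CYCB2;1 (0.61) and MYB3R4 (0.529). Among tissue markers it was so for STM (0.69), BP (0.682) and SEP1 (0.536). Among the loci with a profile like the mitotic genes it was so for AT3G22540 (0.723), MYB43 (0.633), AT2G39560 (0.597), MAD2 (0.574) and AT3G25930 (0.53), which were chosen for that likeness.

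ExTQ019 was far below the rest for CYCA3;2 (0.688) and CYCD4;1 (0.634), and far above it for AT1G10690 (0.614) and KRP3 (0.576). ExTQ016 was far above the rest for the seed markers SESA1 (0.878), SESA3 (0.865), LEC1 (0.789), OLEO1 (0.769) and FUS3 (0.572), of which SESA1 and SESA3 were above background on 1 array only.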

How the results depend on the processing

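Of the values that answer a comparison, 186 under the alternatives stayed as reported and 5 moved, and none reversed. Many of these are counts of called genes that stood at 0 far from a call, so the tally says little about the levels. The highest strain of CYCB1;1 and CDKB2;2 changed from ExTQ013 to ExTQ003 with normexp. In the deposited series values it changed to ExTQ002. The count of mitotic genes called in ExTQ002 was 0 to 2 over the fits that left out 1 other strain, with 2 without ExTQ013, and 1 with adjustment over all strains. The count called in ExTQ003 was 1 with normexp, CDKB1;2 (limma adjusted p = 0.0339), where the median of all loci in that strain shifted by 0.28. The median level of the 9 genes in ExTQ002 minus that of the others was −1.22, and −0.87 in the deposited series values. It ran from −1.35 to −1.22 when 1 other strain was left out. The median SD of the 9 genes ran from 0.29 to 0.56 when 1 strain was left out, the low value being that without ExTQ002. The median correlation over all 36 pairs was 0.92 and ran from 0.69 to 0.96 in the same way. The 7 genes lowest in ExTQ002 were lowest there with normexp, quantile normalization, the deposited series values, median scaling and the mean over probes. Median scaling moved the median of all loci by 0.25 in ExTQ002, −0.23 in ExTQ016 and −0.25 in ExTQ018. The causes were not tested. No paired analysis was possible because the 8 samples form 1 group, with no second group that shares replicate numbers. Promoter motifs, with their alternative of the forward strand only, were not run. Each strain has 1 array, so differences between plants of 1 strain cannot be seen.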
